A study of Mus musculus with 10 samples.

Results

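The genes described here encode the mitochondrial dehydrogenases that hand electrons to ubiquinone without passing through complex I. The list held 7 symbols (Dhodh, Etfa, Etfb, Etfdh, Gpd2, Prodh and Choldh), and a gene was taken where a row of the deposited table carried its symbol. A row was found for 6 of the 7 among 26335 genes, and none for Choldh. Choline dehydrogenase has the symbol Chdh in the mouse, and the Chdh row held 0 reads in 9 libraries and 3 reads in stiripentol 3. A count of 0 still allows a level of up to 0.0459 CPM (a read count divided by the size of the library) in control 1, the most deeply sequenced library, and up to 0.134 CPM in control 5, the shallowest. Chdh was therefore not tested.

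The cells were mSCLC-2405, a mouse small cell lung cancer line from a primary tumor in which conditional alleles, Rb1 among them, had been deleted by Cre recombinase from an adenovirus. Both groups carry the deletions, and all libraries come from this 1 line. RNA was sequenced from 5 control libraries, for which the labels name DMSO, and 5 libraries labelled stiripentol. Cells were kept for 48 h with DMSO or with 250 μM of the drug. Stiripentol is an antiepileptic drug that also inhibits lactate dehydrogenase. Nothing in the labels says that the libraries of a group came from separate cultures, so the p-values below measure the spread between these libraries, which may be technical.

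Ubiquinone is the mobile carrier of the inner mitochondrial membrane that collects electrons from several dehydrogenases and delivers them to complex III. Complex I brings in electrons from NADH and complex II those from succinate. The enzymes described here bring in electrons from other fuels: glycerol-3-phosphate (Gpd2), fatty acids and branched-chain or methylated amino acids (Etfa, Etfb and Etfdh), dihydroorotate of pyrimidine synthesis (Dhodh), proline (Prodh) and choline (Chdh). Etfa and Etfb encode the subunits of the electron transfer flavoprotein (ETF), and Etfdh encodes the enzyme that moves its electrons to ubiquinone.

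The genes lie apart in the genome (GRCm38, also named mm10, GENCODE M21 annotation). Gpd2 is at chr2:57237635-57370719 on the plus strand and Etfb at chr7:43444083-43457800 on the plus strand. Etfdh at chr3:79603788-79629500, Dhodh at chr8:109591343-109608673, Etfa at chr9:55454508-55512243 and Prodh at chr16:18060357-18090203 are on the minus strand. Bases before the RefSeq start sites (GRCm38.p6) were available for 5 of these genes and not used here for Dhodh. They are shown for Gpd2, the gene whose level rose, and for the 3 genes of the ETF pathway, which work in sequence; capitals mark matches to the motifs named in the next paragraph. The stretches end at the RefSeq start or, where an annotated exon of the gene begins among the bases taken, before that exon. They lie at chr2:57237428-57237634 (Gpd2, plus strand), chr9:55512244-55512493 (Etfa, minus strand), chr7:43443822-43444071 (Etfb, plus strand) and chr3:79628864-79629017 (Etfdh, minus strand). The Etfdh stretch lies inside the annotated gene, which begins upstream of it at chr3:79629500. It therefore does not precede the earliest annotated start of Etfdh.
Gpd2: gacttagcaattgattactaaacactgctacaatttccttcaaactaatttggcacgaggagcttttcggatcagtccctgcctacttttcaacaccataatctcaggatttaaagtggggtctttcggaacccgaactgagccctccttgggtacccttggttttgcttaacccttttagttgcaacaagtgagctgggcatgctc
Etfa: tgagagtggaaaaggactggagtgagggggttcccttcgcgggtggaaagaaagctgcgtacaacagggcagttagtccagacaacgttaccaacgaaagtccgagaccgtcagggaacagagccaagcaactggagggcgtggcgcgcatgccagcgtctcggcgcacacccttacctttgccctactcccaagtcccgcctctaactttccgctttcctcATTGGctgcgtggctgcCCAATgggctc
Etfb: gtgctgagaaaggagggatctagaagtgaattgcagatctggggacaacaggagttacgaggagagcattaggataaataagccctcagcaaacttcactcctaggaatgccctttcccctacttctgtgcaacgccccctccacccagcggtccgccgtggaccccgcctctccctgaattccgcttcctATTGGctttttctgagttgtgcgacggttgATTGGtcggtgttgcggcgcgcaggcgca
Etfdh: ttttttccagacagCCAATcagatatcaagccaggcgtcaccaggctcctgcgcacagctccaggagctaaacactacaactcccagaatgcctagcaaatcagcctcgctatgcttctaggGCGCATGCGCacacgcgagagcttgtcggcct

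Within 250 bases before each start, on both strands, the letters GCGCATGCG (the core of the motif of NRF1, a factor of mitochondrial gene expression), TCAAGGTCA (the estrogen-related receptors), TGATGNAAT (the element read by ATF4 with C/EBP factors), CACGTG (the E-box) and CCAAT (the CCAAT box, in capitals as CCAAT or ATTGG) were searched. The NRF1 letters occurred in 1 of 5 genes, Etfdh, and in 1.45% of all 32851 RefSeq windows of the same length. CCAAT occurred in 3 of 5 genes, at 2 places each in Etfa and Etfb and at 1 in Etfdh, and in 33.8% of all windows, with 9.91% of all windows holding 2 or more. No match was found in Gpd2, at either of its RefSeq starts, or in Prodh. The other motifs had no match in these genes and occurred in 0.387%, 0.816% and 6.02% of all windows, in the order given. These matches describe letters only and do not show that a factor binds there.

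Several properties of the series bear on the results. The libraries held 22375625 to 65299372 reads, with control 5 the shallowest. Within each group the libraries lay in 2 sets: controls 1 to 3 apart from controls 4 and 5, and stiripentol 3 to 5 apart from stiripentol 1 and 2. Libraries of the same group and set correlated at 0.983 to 0.997, against 0.920 to 0.939 between the control sets and 0.922 to 0.938 between the stiripentol sets. Controls 1 to 3 are set below against stiripentol 3 to 5 (3 against 3) and controls 4 and 5 against stiripentol 1 and 2 (2 against 2), after the study's own numbering. The labels do not state this match, and controls 4 and 5 correlated better with stiripentol 3 to 5 (0.932 to 0.938) than with stiripentol 1 and 2 (0.881 to 0.904). Of 9 neuroendocrine markers of small cell lung cancer 6 had a row, with a summed level of 93.5 to 120 CPM in control and 127 to 157 CPM in stiripentol libraries. Ncam1 held most of their reads (mean log2 CPM 6.69 in control and 7.15 in stiripentol libraries), and Dll3 had at most 3 reads in any library. The summed level of 6 fibroblast markers was 317 to 511 CPM in control and 106 to 129 CPM in stiripentol libraries. Of these, Col3a1 fell most, from a mean log2 CPM of 6.91 in control to 1.20 in stiripentol libraries. Col1a1 and Dcn had log2 changes (stiripentol minus control) of -0.54 and -0.49 over all libraries. Their signs differed between the sets, with 0.86 and -1.996 in 3 against 3 and -2.63 and 1.76 in 2 against 2. The summed level of 3 leukocyte markers was 4.13 to 18.0 and 55.1 to 103 CPM, nearly all from Cd68, while the leukocyte marker Ptprc had at most 3 reads. For 5 epithelial markers it was 2279 to 2610 and 1547 to 2150 CPM, and for 3 endothelial markers 0.251 to 0.638 and 0.276 to 1.07 CPM. Krt8 and Krt18 held nearly all reads of the epithelial markers, and Epcam had at most 1 read in any library. Cdh1 and Cldn4 went the other way from the sum. Their mean log2 CPM was -1.43 and 1.38 in control and -0.75 and 2.02 in stiripentol libraries. Fewer cells of a type and less RNA per cell cannot be told apart in such bulk samples, and the part of these markers in the results below was not tested.

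The question put to these genes was whether RNA for the other routes into ubiquinone differs after stiripentol. Of the 6 genes, 1 rose and 0 fell (limma, Benjamini-Hochberg adjusted p under 0.05 over 12306 genes with a mean log2 CPM above 0). The background is 13.6% of all tested genes called higher and 14.1% called lower (27.7% in either direction), and all 6 genes passed the filter. The gene that rose was Gpd2. The median log2 change of the 6 genes was 0.04, beside -0.06 for all tested genes. Between the 2 groups, 2 of the 6 genes did not overlap, Gpd2 and Etfa, where 27.2% of all tested genes do not; none of the 6 had all treated libraries below all controls, as 14.3% of all genes did. In the plot of the 6 genes by library, Gpd2 and Etfa show separate groups, and Dhodh splits more by library set than by treatment.

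**Figure D1:**
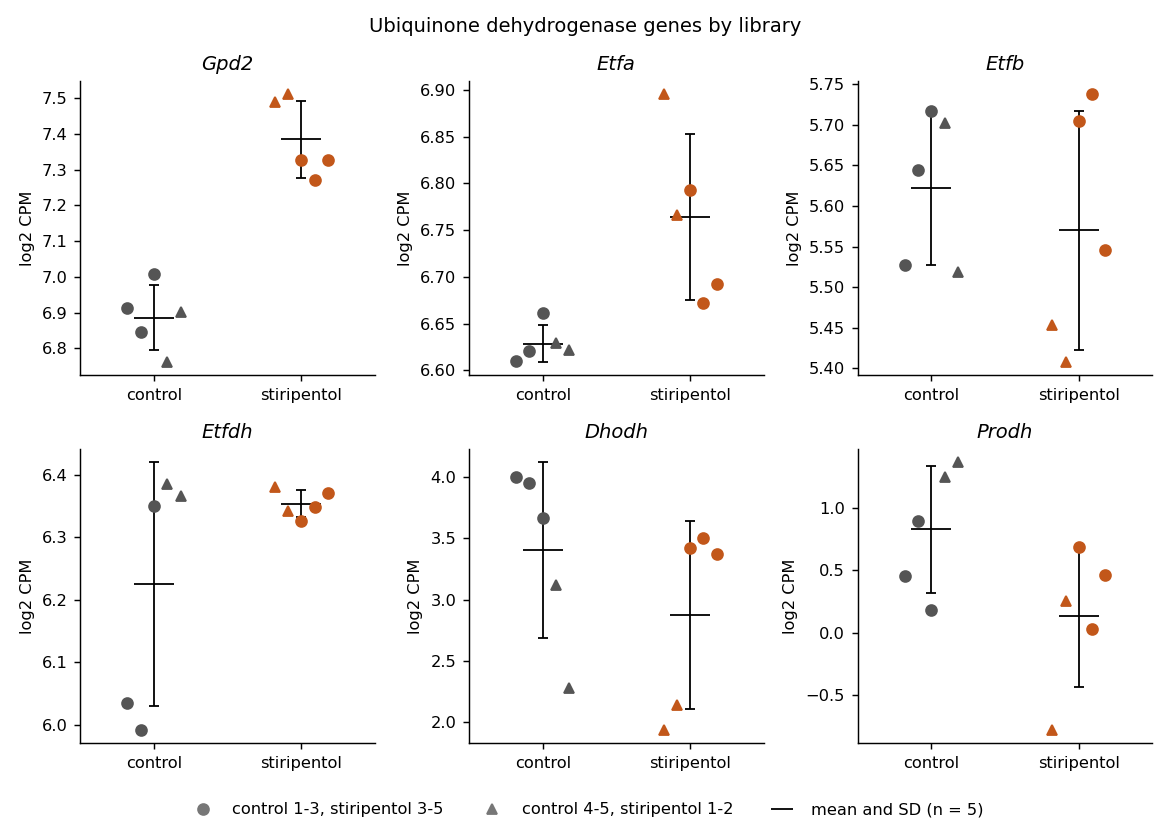
Deposited log2 CPM (vertical axis, a separate scale for each gene) of the 6 genes in the 5 control and 5 stiripentol libraries. Each point is 1 library, with circles for controls 1 to 3 and stiripentol 3 to 5 and triangles for controls 4 and 5 and stiripentol 1 and 2, and the black bars give the mean and SD (n = 5). Every stiripentol library lies above every control for Gpd2 and Etfa, while for Dhodh the triangles lie below the circles in both groups.

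Per kilobase of exon, ETF led these genes. The control level was 53.9 ± 0.741 CPM per kb for Etfa (SD, n = 5), 42.3 ± 2.75 for Etfb, 18.1 ± 1.14 for Gpd2 and 10.0 ± 1.32 for Etfdh. Dhodh followed at 1.82 ± 0.748 and Prodh at 0.235 ± 0.0801 CPM per kb. The order was the same in stiripentol libraries, from 59.3 ± 3.69 CPM per kb for Etfa through 40.9 ± 4.20 for Etfb, 25.6 ± 1.93 for Gpd2, 10.9 ± 0.165 for Etfdh and 1.28 ± 0.583 for Dhodh to 0.144 ± 0.050 for Prodh. No neighbours in this order overlapped within a group. Dividing by exon length fits reads spread along transcripts, as from the total RNA kit of the labels. The study's methods name a 3′ kit instead, for which this order would not hold as a measure of level.

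Gpd2, the inner membrane glycerol-3-phosphate dehydrogenase of the glycerol phosphate shuttle, was higher in every stiripentol library. Its log2 CPM was 6.91, 6.85, 7.01, 6.76 and 6.90 in controls 1 to 5 and 7.49, 7.51, 7.33, 7.27 and 7.33 in stiripentol 1 to 5. The lowest treated library thus lay above the highest control, and the spread within each group was small (6.89 ± 0.09 and 7.39 ± 0.11, SD, n = 5). The log2 change was 0.50 (SE 0.09, 95% interval 0.30 to 0.70, limma adjusted p = 0.00320), a 1.41-fold higher level. A two-sided exact permutation test gave p = 0.00794, the smallest that 252 arrangements of 5 against 5 allow; these exact p-values are not adjusted for the 6 genes. The call held in each of the 10 fits that left out 1 library (adjusted p from 0.00581 to 0.0101). The rise was present in both library sets, at 0.39 in 3 against 3 (adjusted p = 0.00111) and 0.67 in 2 against 2 (adjusted p = 0.000132), contrasts in which 64.7% and 72.2% of all tested genes were called. It was larger in 2 against 2 by 0.28 on the log2 scale (SE 0.11, adjusted p of the interaction = 0.0383), where 63.3% of all tested genes had such a difference. With the sets of the groups matched the other way the difference was -0.10 (adjusted p = 0.414), in a contrast that called 71.9% of all tested genes.

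A cytosolic partner, Gpd1, moved the opposite way at a low level. Gpd1, which makes glycerol-3-phosphate from dihydroxyacetone phosphate and NADH, had a log2 CPM of 1.64, 1.44, 1.36, 1.89 and 2.07 in controls 1 to 5 and -0.91, -0.49, -0.09, -0.68 and 0.20 in stiripentol 1 to 5. It fell by 2.08 on the log2 scale (SE 0.28, adjusted p = 0.000731), with no overlap between the groups and 844 reads in control against 217 in stiripentol libraries. Its mean log2 CPM was 1.68 in control and -0.40 in stiripentol libraries, so Gpd1 passed the filter of a mean above 0 through the controls. With the filter at a mean above 1, Gpd1 was not tested. Not scaled for length, the gap between the log2 CPM of Gpd2 and of Gpd1 within a library was 5.21 ± 0.35 log2 units in control and 7.78 ± 0.50 in stiripentol libraries (SD, n = 5). Gpd1l, a relative of Gpd1, had a change of -0.04 (adjusted p = 0.887), and its mean log2 CPM was 5.66 in control and 5.62 in stiripentol libraries. Pgp, a phosphatase that can act on glycerol-3-phosphate, fell by 1.09 (adjusted p = 0.0206), a call lost when control 1, control 2 or stiripentol 2 was left out (highest adjusted p = 0.0522). Gk, the kinase that makes glycerol-3-phosphate from glycerol, had a change of -0.27 (adjusted p = 0.374). Of these 4 partner genes, 2 fell and none rose, beside 14.1% of all tested genes called lower and 13.6% called higher.

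None of the 3 genes of the ETF route passed the limma test. Etfa had a log2 CPM of 6.61, 6.62, 6.66, 6.63 and 6.62 in controls 1 to 5 and 6.90, 6.77, 6.79, 6.67 and 6.69 in stiripentol 1 to 5. All 5 treated libraries lay above all controls, as in 13% of all tested genes, but the margin between stiripentol 4 and control 3 was smaller than the spread of the controls (SD 0.02). The exact permutation test gave p = 0.00794, while the limma test, which shares the spread across genes, gave a log2 change of 0.14 (SE 0.08, 95% interval -0.05 to 0.32, adjusted p = 0.229), a 1.10-fold level. In 3 against 3 the change was 0.09 (adjusted p = 0.213) and in 2 against 2 it was 0.21 (adjusted p = 0.0973).

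Etfb, the other ETF subunit, had a log2 CPM of 5.53, 5.64, 5.72, 5.70 and 5.52 in controls 1 to 5 and 5.45, 5.41, 5.71, 5.74 and 5.55 in stiripentol 1 to 5. The groups overlapped, with stiripentol 1 and 2 below all controls and stiripentol 4 above them. The log2 change was -0.05 (SE 0.11, 95% interval -0.29 to 0.19, adjusted p = 0.736; exact p = 0.532), and its sign differed between the sets (0.03 and -0.18). Because both subunits stand in the same heterodimer, the gap between them was also taken within each library. Not scaled for length, the log2 CPM of Etfa exceeded that of Etfb by 0.93 to 1.10 log2 units in control and by 0.94 to 1.44 in stiripentol libraries, with means of 1.01 ± 0.08 and 1.19 ± 0.21 (SD, n = 5), so the gap varied more among treated libraries and the ranges overlapped.

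Etfdh had a log2 CPM of 6.03, 5.99, 6.35, 6.38 and 6.37 in controls 1 to 5 and 6.38, 6.34, 6.33, 6.35 and 6.37 in stiripentol 1 to 5. The treated libraries had an SD of only 0.02 and lay inside the range of the controls, and controls 1 and 2 stood apart below. The log2 change was 0.13 (SE 0.11, 95% interval -0.11 to 0.37, adjusted p = 0.384; exact p = 0.365), and it was 0.22 in 3 against 3 (adjusted p = 0.0773) and -0.01 in 2 against 2 (adjusted p = 0.911). These intervals leave room for changes of up to 0.37 in size, so an equal level is not shown.

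Dhodh, the dihydroorotate dehydrogenase of pyrimidine synthesis, varied mainly by library set. Its log2 CPM was 4.00, 3.95, 3.66, 3.12 and 2.28 in controls 1 to 5 and 1.94, 2.14, 3.42, 3.50 and 3.38 in stiripentol 1 to 5, from 108 reads in control 5 to 1041 in control 1. The mean was 3.87 in controls 1 to 3 and 2.70 in controls 4 and 5, and 3.43 in stiripentol 3 to 5 and 2.04 in stiripentol 1 and 2. Over all libraries the log2 change was -0.53 (SE 0.43, 95% interval -1.47 to 0.41, adjusted p = 0.366; exact p = 0.262), with overlapping groups. Within the sets it fell by 0.44 in 3 against 3 (adjusted p = 0.00877) and by 0.66 in 2 against 2 (adjusted p = 0.0337), and in a fit with a term for the set it passed the threshold at adjusted p = 0.0248, as did 50.7% of all tested genes. These within-set values rest on the match of the sets. Against controls 4 and 5 alone, the 5 stiripentol libraries gave a log2 change of 0.18 (adjusted p = 0.843), the opposite sign, in a contrast that called 20% of all tested genes.

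The pyrimidine enzymes on either side of Dhodh had the same order of the control sets. Cad, the enzyme of the first steps, had a log2 CPM of 7.61, 7.55, 7.21, 6.09 and 6.16 in controls 1 to 5 and 5.93, 6.26, 6.52, 6.42 and 6.59 in stiripentol 1 to 5. Umps, which completes UMP, had 6.27, 6.16, 5.85, 5.20 and 5.14 in controls and 5.21, 5.20, 5.40, 5.42 and 5.42 in stiripentol libraries. For all 3 genes controls 4 and 5 lay below controls 1 to 3. Neither partner passed the test over all libraries, with log2 changes of -0.58 (adjusted p = 0.185) and -0.40 (adjusted p = 0.202). In 3 against 3 both fell, Cad by 0.95 (adjusted p = 0.000234) and Umps by 0.68 (adjusted p = 0.000957), while in 2 against 2 their values were -0.03 and 0.03.

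Prodh, the proline dehydrogenase, was near the lower limit of the test, with 33 to 149 reads in a library. Its log2 CPM was 0.45, 0.90, 0.18, 1.25 and 1.37 in controls 1 to 5 and -0.78, 0.25, 0.69, 0.03 and 0.47 in stiripentol 1 to 5. The groups overlapped, with stiripentol 1 and 4 below all controls. The log2 change was -0.70 (SE 0.35, 95% interval -1.47 to 0.07, adjusted p = 0.154; exact p = 0.0873). It was -0.11 in 3 against 3 (adjusted p = 0.71) and -1.57 in 2 against 2 (adjusted p = 0.00155). These contrasts called 64.7% and 72.2% of all tested genes. The median of all genes in 2 against 2 was -0.25, and stiripentol 1 and 2 held only 33 and 67 Prodh reads. The Prodh difference of -1.46 between the sets passed the test (SE 0.47, adjusted p = 0.0180), which 63.3% of all tested genes passed. With the sets matched the other way the Prodh difference was -0.14 (adjusted p = 0.80), in a contrast that called 71.9% of all tested genes. Prodh shares 401 exonic bases with Dgcr6 on the other strand, which had 17945 reads against 793 for Prodh over all libraries and whose log2 CPM was 4.63 to 4.95 in control and 4.92 to 5.32 in stiripentol libraries. Whether the counting used strand is not given in the sources used here, so reads of these genes cannot be told apart in the shared bases.

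In the plot of changes by library set, the intervals of Gpd2 lie above 0 in all 3 contrasts, whereas those of Etfa, Etfb and Etfdh include 0 in each.

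**Figure D2:**
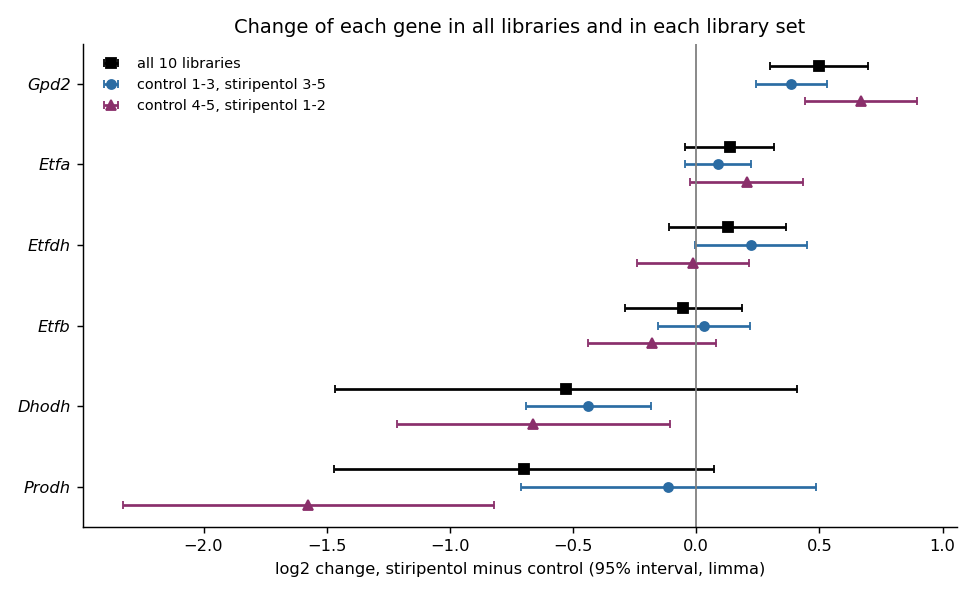
Log2 change (stiripentol minus control, horizontal axis) of the 6 genes with 95% intervals from limma. Squares give all 10 libraries, circles controls 1 to 3 against stiripentol 3 to 5 and triangles controls 4 and 5 against stiripentol 1 and 2. For Gpd2 the 3 values are 0.50, 0.39 and 0.67. For Dhodh the interval over all libraries (-1.47 to 0.41) is wider than those within the sets.

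Of the other genes, 3 also share exonic bases with a neighbour. Etfb shares 1119 exonic bases with Gm45233 on the same strand, which was given 257 reads against 27476 for Etfb. Etfdh shares 422 bases with 4930579G24Rik on the other strand (7103 reads against 44129). The log2 CPM of 4930579G24Rik was 3.62 to 4.28 in control and 1.87 to 3.82 in stiripentol libraries, a difference of -0.89 between the group means. Its part in the Etfdh values was not tested. Gpd2 shares 566 bases with A930012O16Rik on the other strand (363 reads against 81144). The counting could split reads of Etfb with Gm45233, and reads from the other strand could enter those of Etfdh and Gpd2, so these values are uncertain to that extent.

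The enzymes around these genes were taken as lists of partners, 61 symbols of which 58 had a row and 55 were tested. Of these 55 partners 9 fell and 5 rose, with a median log2 change of -0.17, beside the 14.1% and 13.6% of all genes called in each direction. Of these, Rfk and Sqor did not pass the test within 2 against 2, with a change of 0.03 for Rfk (adjusted p = 0.813; 0.63 in 3 against 3) and of 0.24 for Sqor (adjusted p = 0.0519; 1.11 in 3 against 3).

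**Figure D3:**
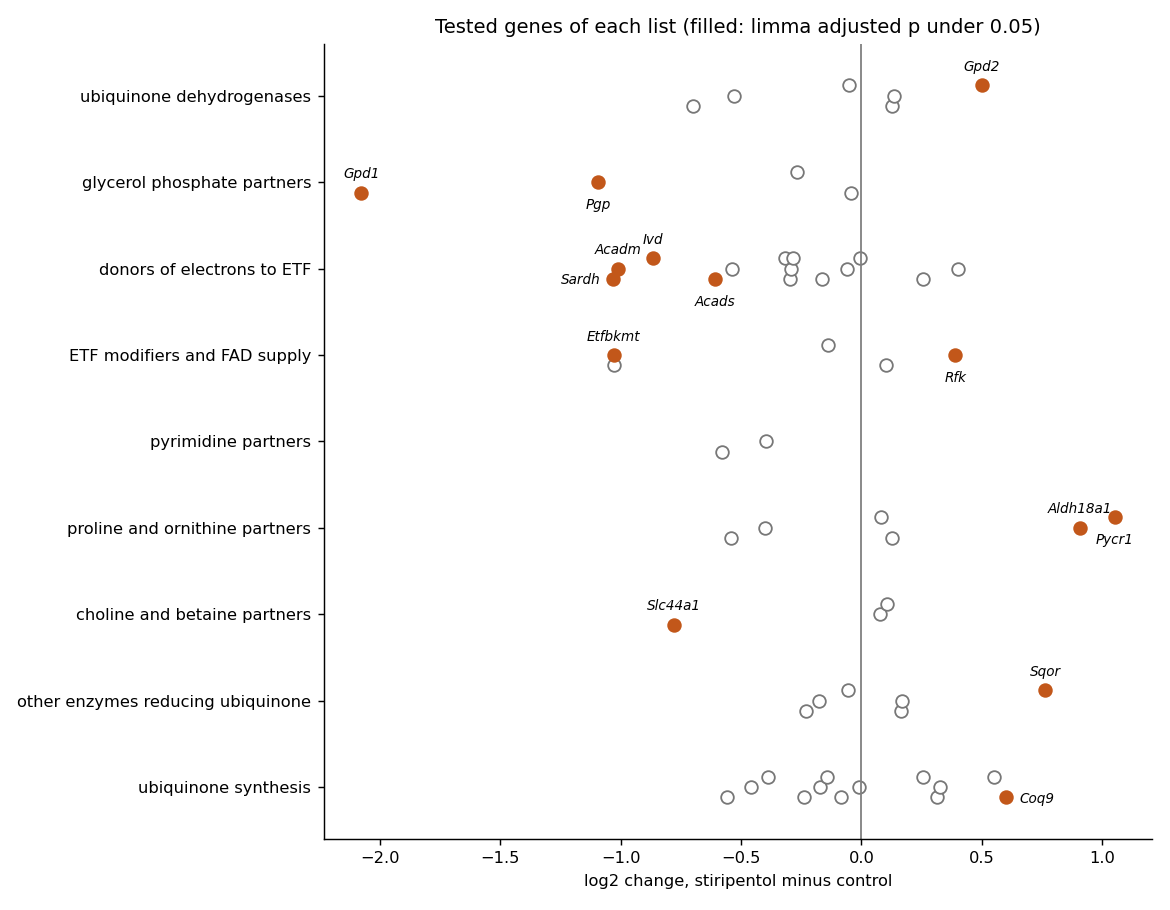
Log2 change (stiripentol minus control, horizontal axis) of the tested genes reported here, with 1 line per list and small vertical offsets to separate points. Filled points passed the limma test at adjusted p under 0.05 and are named. Among the ubiquinone dehydrogenases only Gpd2 (0.50) is filled, and Gpd1 (-2.08) is the lowest point of all lists.

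Of 14 tested enzymes that feed ETF, 4 fell and none rose, beside 14.1% of all tested genes called lower and 13.6% called higher. Their median log2 change was -0.29, beside -0.06 for all tested genes, and Dmgdh had no reads. Acadm, the medium-chain acyl-CoA dehydrogenase, had a log2 CPM of 6.02 to 7.07 in control and 5.09 to 5.77 in stiripentol libraries and fell by 1.01 (SE 0.23, adjusted p = 0.0109). Acads, its short-chain relative, fell by 0.61 (adjusted p = 0.00910), from 5.70 to 6.30 in control to 5.15 to 5.41 in stiripentol libraries. Ivd, the isovaleryl-CoA dehydrogenase of leucine breakdown, fell by 0.87 (adjusted p = 0.00355). Sardh, the sarcosine dehydrogenase, was at 6.23 to 6.63 in control and 4.76 to 5.76 in stiripentol libraries and fell by 1.03 (SE 0.21, adjusted p = 0.00543). Acadl, the long-chain enzyme, had a change of 0.40 (adjusted p = 0.112). Within the sets Acadl rose, by 0.41 in 3 against 3 (limma adjusted p = 0.0159) and by 0.39 in 2 against 2 (limma adjusted p = 0.00391). These contrasts called 64.7% and 72.2% of all tested genes. In 3 against 3, Acadm, Acads, Ivd and Sardh fell by 0.38 to 0.82. In 2 against 2 they fell by 0.95 to 1.87. Over all libraries, the ETF subunits had values of 0.14 and -0.05 beside falls of 0.61 to 1.03 in these 4 of their donors. The differences between these changes were not tested.

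Among 5 genes that modify ETF or supply its FAD, 1 fell and 1 rose, beside 14.1% and 13.6% of all tested genes. Etfbkmt, the methyltransferase that acts on lysines of the Etfb product, fell by 1.03 (SE 0.26, adjusted p = 0.0157), from a log2 CPM of 2.50 to 2.87 in control to 1.01 to 2.23 in stiripentol libraries. Etfrf1, a factor that binds ETF, had nearly the same value, -1.03 (adjusted p = 0.0815), without passing the test. Its treated libraries split into 2.00 and 1.64 in stiripentol 1 and 2 and 3.58 to 3.67 in the others, all below the controls (3.77 to 4.02). Rfk, the riboflavin kinase of FMN and FAD synthesis, rose by 0.39 (adjusted p = 0.0423), a call that was lost in 7 of the 10 fits that left out 1 library (without control 1, 2, 3 or 5 or stiripentol 3, 4 or 5; highest adjusted p = 0.0963).

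Among the genes around Prodh, 2 of proline synthesis rose. Of 7 tested partners of proline and ornithine metabolism, these 2 rose and none fell, beside 13.6% and 14.1% of all tested genes. Aldh18a1, which makes the pyrroline-5-carboxylate precursor from glutamate, rose by 0.91 (SE 0.21, adjusted p = 0.0102), with a log2 CPM of 8.09, 8.51, 8.15, 7.43 and 7.33 in controls 1 to 5 and 8.73, 8.73, 8.88, 8.84 and 8.87 in stiripentol 1 to 5. Pycr1, which completes proline, rose by 1.05 (SE 0.28, adjusted p = 0.0186), from 4.52 to 5.70 in control to 5.76 to 6.51 in stiripentol libraries. Pycrl, another pyrroline-5-carboxylate reductase gene, had a change of 0.13 and was not called. Aldh4a1, the enzyme after Prodh in proline breakdown, had a change of -0.54 (adjusted p = 0.110), close to the -0.70 of Prodh, and both had the larger size of change in 2 against 2 (-1.33 for Aldh4a1).

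The remaining routes gave few calls, to be read beside 14.1% of all tested genes called lower and 13.6% called higher. Slc44a1, a choline transporter and the 1 gene called of 3 tested around choline dehydrogenase, fell by 0.78 (adjusted p = 0.00514). Among 7 other enzymes that reduce ubiquinone, 1 fell, which is not reported here by name, and 1 rose. The gene that rose was Sqor, which oxidises sulfide, by 0.76 (SE 0.21, adjusted p = 0.0227). The Sqor call was lost without control 2 or control 3 (highest adjusted p = 0.0561). Over all libraries the complex II genes Sdha, Sdhb, Sdhc and Sdhd did not pass the test, with changes of 0.16, 0.17, -0.17 and -0.06. In 3 against 3 their changes were 0.09, 0.37, -0.14 and -0.26, and Sdhb and Sdhd passed (limma adjusted p = 0.000923 and 0.00506). In 2 against 2 they were 0.27, -0.13, -0.22 and 0.25, and Sdha passed (limma adjusted p = 0.0229). These contrasts called 64.7% and 72.2% of all tested genes. Of 13 genes of ubiquinone synthesis, Coq9, a lipid-binding protein of that pathway, rose by 0.60 (adjusted p = 0.00544) and none fell. In the plot of called partners by library, the treated values of Coq9 and Sqor lie closer together than their controls.

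**Figure D4:**
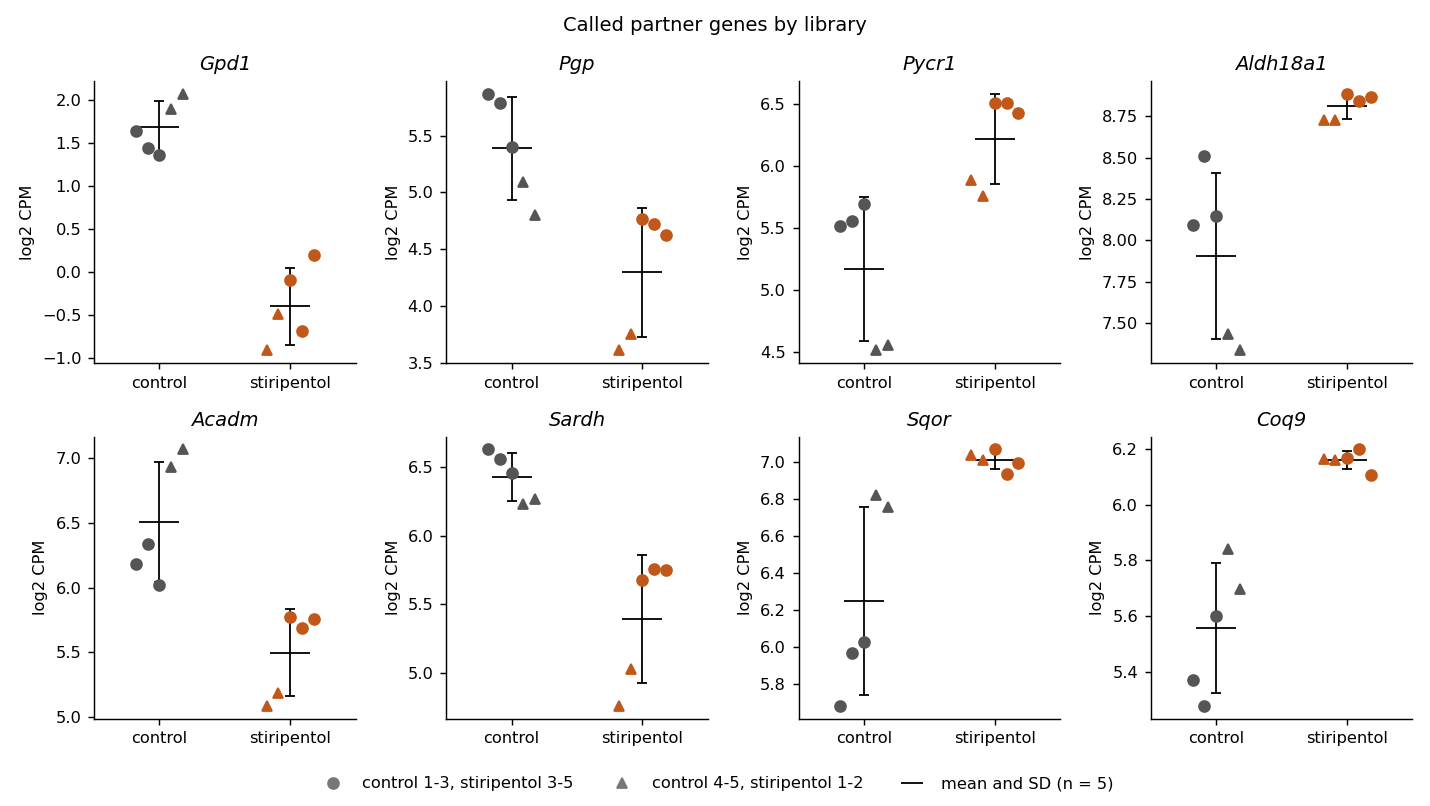
Deposited log2 CPM (vertical axis, a separate scale for each gene) of 8 called partner genes in the 5 control and 5 stiripentol libraries, with circles and triangles for the library sets and black bars for mean and SD (n = 5). For each of the 8 genes controls 4 and 5 both lie above, or both below, all of controls 1 to 3.

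The genes whose log2 CPM followed each of the 6 most closely over the 10 libraries were named by Pearson correlation, as a description. The 10 points share their libraries, depth and the set structure, which any gene that differs by group or set carries. Gpd2 was followed by Ckap5, Tmem131 and Gm37123 (r of 0.990, 0.989 and 0.989) and Etfa by Oscp1, Atp5f1 and Gm18588 (0.970, 0.950 and 0.941). The closest to Etfdh were Parp8, Zfr2 and Lims2 (0.981, 0.977 and 0.973), and to Dhodh 3110082I17Rik, Snx17 and Mrpl28 (0.992, 0.987 and 0.985). Etfb had weaker companions in C920006O11Rik, Htra2 and 2410015M20Rik (0.860, 0.860 and 0.854), and Prodh had Klhl22, Slc26a2 and Dand5 (0.936, 0.929 and 0.924). Among the 6 genes themselves, Etfa and Gpd2 had r = 0.85, whereas Etfa and Etfb, the subunits of the same protein, had r = -0.37.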

How the data were processed

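RNA-seq of 10 libraries was read from the table the authors deposited, which holds log2 CPM per gene and library. Per the labels the build is mm10. The aligner, counter, annotation and strand setting are not given in the sources used here, and the study's methods name GENAVi for normalization. The labels name a total RNA kit and the methods a 3′ kit. The authors also deposited group means, a ratio of means with its log2, p-values and q-values with their -log10, which were not used here. Undoing the logarithm and the prior gave whole reads (100% of values, tolerance 0.02), so depth is known. Depth gives the counting error only, and PCR reads without molecular identifiers can vary by more than that. Between libraries of the same group and set the chi-square per gene ran from 8.39 (stiripentol 3 and 4) to 129 (controls 1 and 3).

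The main test was limma 3.58.1 in R 4.3.3 (lmFit, eBayes with trend) on the deposited log2 values, 5 against 5 without covariates, with Benjamini-Hochberg adjustment over the 12306 genes with mean log2 CPM above 0. Because the values were deposited as log2 CPM, a log-scale test was used. On the recovered reads limma voom called 1864 genes lower and 1762 higher, against 1740 and 1674. The value of no reads was -4.82 in controls 1 to 3 and -4.74 in the other 7 libraries. Two-sided exact permutation tests, values and figures used Python 3.11.15, numpy 2.4.6, scipy 1.17.1, pandas 2.3.3 and matplotlib 3.10.9. The fits were tested on simulated data. The members and lists were chosen with earlier results of these data known. Genes were named by a rule: every member, every called partner, the partners that do the step next to a member, and the 3 genes most correlated with each member. Acadl, Etfrf1 and the complex II genes fall outside it and were chosen knowing their values. A few genes that enter the counts are not reported here by name. Alternatives were leaving out each library, blocks, library sets, 3 scalings or models, filters, pseudocounts of 0.1 and 1 CPM and a minimum absolute log2 change of 1; the sets matched the other way were added after seeing the data.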

Additional observations from a re-analysis of the deposited data

Results flagged for a closer look

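Among the control libraries the total of control 5, 22375625 reads, stood apart from the other 4, its gap to the nearest being 0.830 of the whole range. Of 14 groups examined in this way, chance would flag about 0.7. Without control 5 the call of Gpd2 and the count of 0 genes called lower were as before.

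The change of Gpd2 differed between the library sets by 0.28 on the log2 scale (2 against 2 minus 3 against 3, adjusted p = 0.0383), and that of Prodh by -1.46 (adjusted p = 0.0180). Both differences rest on the match of the sets between the groups. A difference of this kind was called in 63.3% of all tested genes, and in 71.9% with the other match. With that other match neither Gpd2 nor Prodh passed the test (-0.10 and -0.14), and the difference of Dhodh, which was not called before, was 2.57 (adjusted p = 1.37e-05).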

How the results depend on the processing

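The count of 1 member higher (Gpd2) was 1 under every alternative except 1 mean per group and set (0 of all tested genes called by limma, 1116 at an unadjusted p under 0.05; Gpd2 0.53, adjusted p = 0.606) and a minimum absolute log2 change of 1, under which it was 0. The count of 0 members lower became 1 with a term for the library set, 1 in 3 against 3 and 2 in 2 against 2, and was 0 in every fit that left out 1 library. Partners called lower, 9 in the main test, numbered 19 with the set term, 19 in 3 against 3, 26 in 2 against 2, 0 with 1 mean per group and set, 5 with the minimum change and 7 to 9 when 1 library was left out. Partners called higher, 5 in the main test, numbered 9, 18, 0 and 1 with the set term, in 3 against 3, with 1 mean per group and set and with the minimum change. They numbered 3 in the 7 libraries that share a value of no reads and 3 to 5 when 1 library was left out (3 without control 2 or control 3). Of the 6 members, 2 had a difference between sets, beside 63.3% of all tested genes. The count of such members was 1 under quantile normalization and 1 without a filter. With the sets matched the other way it was 1 (Dhodh), beside 71.9% of all tested genes. It was 0 to 3 when 1 library was left out (0 without stiripentol 1, 1 without control 1, control 4 or any of stiripentol 2 to 5). The causes were not tested. The sign turned for Dhodh in the 7 libraries (0.18), for Etfb in 3 against 3 (0.033), under quantile normalization (0.015) and under median-of-ratios scaling (0.025), and for Etfdh in 2 against 2 (-0.014) and in the 7 libraries (-0.021), none of them called in the main test or there. Gpd2 stayed between 0.39 and 0.67 in all 25 alternatives. Over all tested genes 1740 fell and 1674 rose, against 3336 and 2908 with the set term, 3322 and 4637 in 3 against 3 and 5726 and 3158 in 2 against 2, where the medians of all genes were 0.08 and -0.25. Quantile normalization moved the median of all genes from -0.06 to 0.05. Same-numbered libraries deviated together at correlations of -0.24 to 0.06, so they share only a number. With a replicate block on these numbers, 3 partners were called higher and 2082 genes in all, 16.9% of those tested. With the study's own numbers as a replicate block (0.08 to 0.22) 34.5% were called. The call of Gpd2 held under both blocks, while the first ended those of Pgp, Pycr1 and Sqor (adjusted p of 0.0572 to 0.0849) and the other that of Rfk (0.0719). In the 7 libraries Etfbkmt, Pgp, Rfk, Sardh, Slc44a1 and Sqor lost their calls (0.0695 to 0.280). Prodh, at 33 to 149 reads a library, is limited by depth more than the other genes.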
